A study of Mus musculus with 8 samples.

Results

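The growth hormone, STAT5 and IGF axis was followed through 10 genes in whole mouse liver: Ghr, Stat5a, Stat5b, Socs2, Cish, Igf1, Igfals, Igfbp1, Bcl6 and Cux2. The members were chosen by gene symbol, with earlier results of these data known. Their probes are all non-control probes whose RefSeq accession maps to one of these symbols, and no measured value entered that mapping. The members have 17 probes among 39429 on the array, and 10 of 10 members passed the filter on dim probes, among 15834 genes tested. The study set livers with and without Keap1, the adaptor that holds the transcription factor Nrf2 low, side by side. RNA from 8 livers was measured, 1 array per liver, in 4 groups of 2: AKP::Keap1 females, AKP females, AKP::Keap1 males and AKP males. AKP mice carry an activated oncogene together with mutant p53 in the liver, and AKP::Keap1 mice carry both and also lack Keap1 there. Every liver therefore carried the oncogene and the p53 mutation, and no liver without them was analysed here. The labels give neither the animals' age nor the driver that confines the alleles to the liver, nor the share of each piece that was tumour.

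Pituitary growth hormone binds its receptor, Ghr, on the hepatocyte surface, and the kinase JAK2 then phosphorylates the transcription factors STAT5A and STAT5B. Nuclear STAT5 switches on Igf1 and Igfals, whose products circulate together, and the feedback inhibitors Socs2 and Cish, which damp the receptor. Growth hormone reaches male rodent liver in pulses and female liver almost continuously. STAT5, with the repressors Bcl6, which is male-biased, and Cux2, which is female-specific in mouse liver, turns that difference into sex-biased expression of many liver genes. Igfbp1, a binding protein for IGFs, is under insulin and FoxO1 control rather than being a typical STAT5 target.

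STAT proteins bind the palindrome TTCNNNGAA, which is its own reverse complement, so that searching one strand covers both. RefSeq promoter windows of assembly GRCm38.p6, each of 300 bases from 250 before to 50 after a gene's start, were searched for these letters. Of 32851 windows in the table, 8.3% held at least 1 match, 0.457% at least 2 and 0.0335% at least 3. The members had 16 windows for 9 of the 10 genes, and 5 of these windows, belonging to Cish, Igfals and Bcl6, held a match. Socs2 was not among the genes listed. A match is a description of letters and not a site shown to be bound, and no match says only that these letters are not in the window. The 3 windows below are shown with capitals marking each match. Those of Cish and Bcl6 carry the densest matches among the members. That of Igfals belongs to the member with the smallest adjusted p by genotype over both sexes, so measured values entered its choice. The Cish window is chr9:107296409-107296708 on the plus strand, with 2 matches that begin 0 and 11 bases after the start. The Igfals window is chr17:24877981-24878280 on the plus strand, with 1 match 58 bases before the start, and a second Igfals start at chr17:24877594-24877893 had 1 match 236 bases before it. The Bcl6 window is chr16:23981234-23981533 on the minus strand, with matches 168, 122 and 88 bases before the start.
Cish: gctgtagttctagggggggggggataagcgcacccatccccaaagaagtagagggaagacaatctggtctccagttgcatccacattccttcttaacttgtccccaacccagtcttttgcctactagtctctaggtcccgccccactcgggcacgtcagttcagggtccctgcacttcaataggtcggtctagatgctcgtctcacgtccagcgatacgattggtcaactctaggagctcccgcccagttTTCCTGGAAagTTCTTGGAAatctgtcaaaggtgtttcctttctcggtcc
Igfals: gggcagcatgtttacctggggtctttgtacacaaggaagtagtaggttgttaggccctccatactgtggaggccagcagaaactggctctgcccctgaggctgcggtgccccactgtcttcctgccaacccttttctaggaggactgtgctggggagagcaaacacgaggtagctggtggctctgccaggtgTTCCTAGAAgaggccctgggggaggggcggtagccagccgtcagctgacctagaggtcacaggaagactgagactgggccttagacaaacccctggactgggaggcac
Bcl6: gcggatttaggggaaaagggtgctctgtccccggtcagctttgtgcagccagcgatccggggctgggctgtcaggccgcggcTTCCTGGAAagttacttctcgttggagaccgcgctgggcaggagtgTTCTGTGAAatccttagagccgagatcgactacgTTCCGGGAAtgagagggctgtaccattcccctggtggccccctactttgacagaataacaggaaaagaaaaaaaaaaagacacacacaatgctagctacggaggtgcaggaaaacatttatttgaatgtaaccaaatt

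Levels are log2 of the processed spot signal minus the array's 75th percentile, so that they can be compared between arrays for a probe but not between probes. A gene was called when its Benjamini-Hochberg adjusted p in limma, over all 15834 genes, was below 0.05. Between 65.7% and 70.7% of spots were well above background on an array, and none was saturated. Across genes, the 2 livers of a group correlated at 0.9895 to 0.9919, a description over genes that are not independent of each other. Keap1 was at most -0.64 in the AKP::Keap1 livers and at least 1.55 in the AKP livers, a difference of -2.85 ± 0.11 (SE, adjusted p = 0.00018). Each of the 4 slides held 1 group, and females and males were scanned on different days, so slide and scan day cannot be told apart from group and sex. The hepatocyte markers Alb, Ttr, Apoa1 and Hnf4a were well above background on all 8 arrays, as was every gene of the 12-gene hepatocyte list.

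With Keap1 deleted, 3 of the 10 axis genes fell and 0 rose over both sexes: the receptor Ghr, the feedback inhibitor Socs2 and the IGF carrier subunit Igfals. The other 7 were not called. Across all genes 39.0% were called in this comparison, 17.4% lower and 21.7% higher. As a share called, 3 of 10 was below the background, and as a share called lower it was above it. With 10 members, whether either share departs from the background was not tested. The median difference over the members was -0.27, against 0 over all genes tested. By sex, 2 members fell in females (Socs2 and Igfals), with 21.5% of all genes called and 8.93% called lower. In males 2 fell (Ghr and Igfals), with 29.0% of all genes called and 12.5% called lower. Cux2 also passed the threshold in males, with the higher values in AKP::Keap1, but only 1 of the 4 male arrays showed it well above background.

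**Figure D1:**
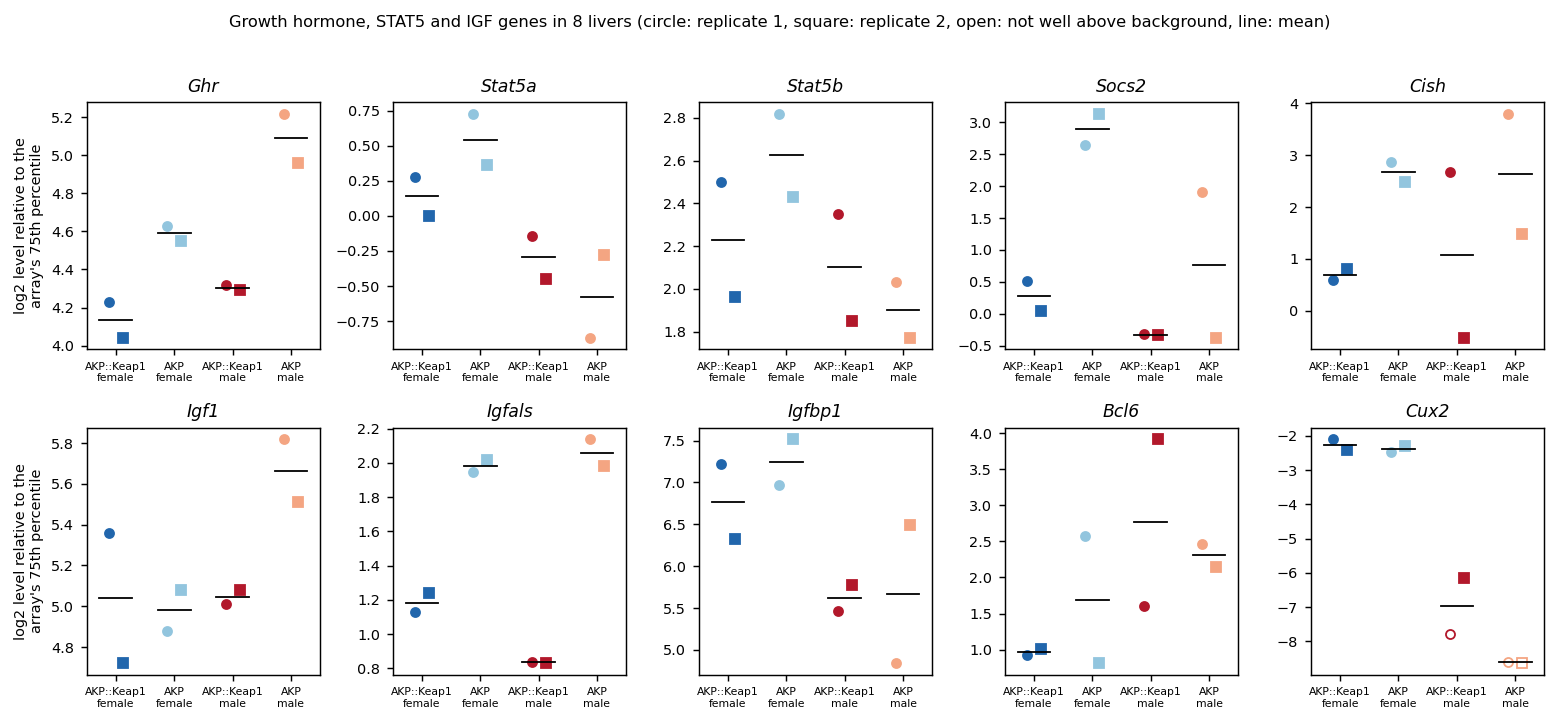
Level of each of the 10 genes in the 8 livers, as log2 signal relative to the array's 75th percentile (vertical axes differ between panels). Points are single livers, lines are group means, and open points are not well above background; Igfals shows no overlap between genotypes in either sex, Socs2 separates the 2 AKP males, and Cux2 separates the sexes.

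The receptor stands first. The brighter Ghr probe read 4.23 and 4.04 in AKP::Keap1 females, against 4.63 and 4.55 in AKP females. It read 4.32 and 4.29 in AKP::Keap1 males, against 5.22 and 4.96 in AKP males. Both AKP::Keap1 livers lay below both AKP livers within each sex, and all 4 lay below all 4. Over both sexes Ghr fell by 0.62 ± 0.10 (SE, adjusted p = 0.0055), a 1.54-fold difference. On unscaled arrays, where the median of all genes was 0.31, it was -0.31 and not called (adjusted p = 0.055). The difference was -0.45 ± 0.14 in females (adjusted p = 0.066) and -0.79 ± 0.14 in males, where it was called (adjusted p = 0.014). The female difference minus the male difference was 0.34 ± 0.20 (adjusted p = 0.36), so the sexes were not shown to differ. Group means ordered as AKP::Keap1 females (4.14 ± 0.13, SD, n = 2), AKP::Keap1 males (4.30 ± 0.02), AKP females (4.59 ± 0.06) and AKP males (5.09 ± 0.18). The difference between the first 2 of these was not called (-0.17 ± 0.14, adjusted p = 0.54), nor was that between the last 2 (-0.50 ± 0.14, adjusted p = 0.052). The last pair was called in 3 of 10 alternatives, such as after a shift to the array median (-0.70, adjusted p = 0.017). With another background correction followed by quantile normalization it was 0.13 (adjusted p = 0.43). Fitted probe by probe, the dimmer Ghr probe gave -0.24 ± 0.15 for that pair (adjusted p = 0.29).

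Mouse Ghr encodes both the membrane receptor and, by alternative splicing, a soluble binding protein. Which of these products each Ghr probe reads was not used here, so neither probe is assigned to one of them. The second Ghr probe is annotated to a different RefSeq transcript, and it read 3.75 and 3.39 in AKP::Keap1 females, against 4.30 and 4.41 in AKP females. In males it read 3.71 and 3.77 in AKP::Keap1 and 4.62 and 4.56 in AKP. Fitted over 20557 probes one by one, this probe fell, with differences of -0.82 ± 0.11 over both sexes (adjusted p = 0.0028), -0.78 ± 0.15 in females (adjusted p = 0.016) and -0.85 ± 0.15 in males (adjusted p = 0.014). Both probes thus had lower signals in AKP::Keap1 livers. In females the brighter probe was also called after a shift to the array median (-0.59, adjusted p = 0.031) and with quantile normalization (-0.56, adjusted p = 0.022). It was called there too with another background correction before quantile normalization (-0.57, adjusted p = 0.012) and under a trended robust variance (-0.45, adjusted p = 0.041). The mean of both probes was called in females as well (-0.62, adjusted p = 0.025). In males the call on the brighter probe was lost with unscaled arrays (-0.27, adjusted p = 0.19) and with another background correction before quantile normalization (-0.23, adjusted p = 0.15). It was also lost, with differences of -0.81 to -0.66 and adjusted p of 0.06 to 0.076, when AKP::Keap1 male 1, AKP::Keap1 male 2 or AKP male 1 was left out.

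Hepatocyte markers moved in the same direction as Ghr. Of 12 such genes 0 rose and 7 fell over both sexes, with a median of -0.42, and medians were -0.25 in females and -0.68 in males. In females 2 of the 12 fell, with 8.93% of all genes called lower. In males 9 fell, with 12.5% of all genes called lower. The mean level of the hepatocyte list ran from 5.87 to 6.17 in AKP::Keap1 livers and from 6.31 to 6.72 in AKP livers. Of 12 biliary markers 10 rose and 0 fell, with a median of 3.12 and mean levels of -0.30 to 0.55 in AKP::Keap1 livers, against -3.31 to -2.33 in AKP livers. In whole tissue, fewer hepatocytes and less RNA per hepatocyte cannot be told apart, and the part of these marker shifts in the members' differences was not tested. Among the other lists, 4 of 11 macrophage markers, 2 of 10 T and B cell markers and 7 of 12 stellate cell markers rose. By contrast, 2 stellate and 5 of 12 endothelial markers fell. Of all genes 21.7% were called higher and 17.4% lower over both sexes. The share of T and B cell markers that rose was near that of all genes. Whether any of these lists departs from those shares was not tested.

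The signal transducers showed no called genotype difference. Stat5b, the main STAT5 of liver, read 2.50 and 1.96 in AKP::Keap1 females, against 2.82 and 2.43 in AKP females. It read 2.35 and 1.85 in AKP::Keap1 males, against 2.03 and 1.77 in AKP males. The ranges overlapped in both sexes, and the difference over both was -0.10 ± 0.19 (95% interval -0.56 to 0.36, adjusted p = 0.71). Its dimmer probe gave -0.31 ± 0.18 (adjusted p = 0.21). Stat5a, its close paralogue, read 0.28 and 0.00 in AKP::Keap1 females, against 0.73 and 0.36 in AKP females. It read -0.14 and -0.45 in AKP::Keap1 males, against -0.87 and -0.28 in AKP males. Over both sexes the Stat5a difference was -0.07 ± 0.18 (95% interval -0.50 to 0.36, adjusted p = 0.79). A 2-fold change, 1 on this scale, lies outside both of these intervals for the mean of the sexes. In females a 2-fold fall lies inside them: Stat5a differed by -0.41 (95% interval -1.02 to 0.20, adjusted p = 0.28), without overlap. Stat5b differed there by -0.39 (-1.04 to 0.26, adjusted p = 0.33), and its dimmer probe by -0.64 (-1.25 to -0.03, adjusted p = 0.11). The male differences were 0.28 for Stat5a (adjusted p = 0.42) and 0.20 for Stat5b (adjusted p = 0.6). On arrays without scaling, the sign of both differences over both sexes turned.

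Socs2, the inhibitor that limits growth hormone signalling, showed the widest called difference of the axis by genotype. Its brightest probe, spotted 10 times per array, read 0.51 and 0.04 in AKP::Keap1 females, against 2.65 and 3.14 in AKP females. In males it read -0.32 and -0.34 in AKP::Keap1, against 1.91 and -0.38 in AKP. The females separated without overlap, whereas AKP male 2 lay at the level of the AKP::Keap1 males and AKP male 1 well above it. In females Socs2 fell by 2.62 ± 0.69 (adjusted p = 0.043), a 6.15-fold difference. The male difference was -1.10 ± 0.69 (adjusted p = 0.26), and it was 0.05 without AKP male 1 and -2.25 without AKP male 2 (adjusted p = 0.02 without male 2). Over both sexes Socs2 fell by 1.86 ± 0.49 (adjusted p = 0.027). The female difference minus the male difference was -1.52 ± 0.97 (adjusted p = 0.39).

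All 3 Socs2 probes gave the same picture. The middle one read -0.28 and -0.67 in AKP::Keap1 females, against 1.77 and 2.36 in AKP females, and its female difference was -2.54 ± 0.59 (adjusted p = 0.027). The dimmest gave -2.25 ± 0.59 in females (adjusted p = 0.037). In AKP males the replicates differed by 2.30, 1.95 and 1.92 for the 3 probes, so each of the 3 probes showed the gap between those 2 livers. The call over both sexes was lost in 6 of 8 fits with 1 array left out, all but those without AKP male 1 or AKP male 2 (differences -1.98 to -1.74, adjusted p 0.05 to 0.081) and with slide as a random block (-1.86, adjusted p = 0.074). In females the call was lost when any AKP::Keap1 array or any AKP female array was left out, with adjusted p of 0.073 to 0.17.

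Cish, another SOCS-family inhibitor and a classic rapid STAT5 target, was the most uneven member in males. It read 0.59 and 0.81 in AKP::Keap1 females, against 2.86 and 2.49 in AKP females. It read 2.67 and -0.52 in AKP::Keap1 males, against 3.80 and 1.48 in AKP males. The females did not overlap and the males did, the AKP::Keap1 males lying 3.19 and the AKP males 2.32 apart on the log2 scale. The differences were -1.98 ± 1.13 in females (adjusted p = 0.25), -1.56 ± 1.13 in males (adjusted p = 0.32) and -1.77 ± 0.80 over both (95% interval -3.71 to 0.17, adjusted p = 0.12). Without AKP::Keap1 male 1 the difference over both sexes was -2.57 (adjusted p = 0.029), and the female arrays fitted alone gave adjusted p = 0.033. The Cish window printed above holds 2 matches to the STAT palindrome within the first bases of the gene.

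Among the circulating products, Igfals carried the firmest genotype difference. Its protein, the acid-labile subunit, is made by hepatocytes and holds IGF1 in a long-lived complex in blood. Igfals read 1.13 and 1.24 in AKP::Keap1 females, against 1.95 and 2.02 in AKP females. It read 0.84 and 0.83 in AKP::Keap1 males, against 2.14 and 1.98 in AKP males. All 4 AKP::Keap1 livers lay below all 4 AKP livers, and replicates differed by 0.16 or less. Igfals fell by 1.02 ± 0.08 over both sexes (adjusted p = 0.0011), a 2.02-fold difference. It differed by -0.80 ± 0.12 in females (adjusted p = 0.0096) and by -1.23 ± 0.12 in males (adjusted p = 0.0027), both called. The call over both sexes held in 10 of 10 alternatives and in 8 of 8 fits with 1 array left out. The female difference alone lost its call without AKP female 2 (-0.77, adjusted p = 0.056).

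Igfals was also the one member whose interaction had an unadjusted p below 0.05, at 0.041 (0.43 ± 0.17, adjusted p = 0.19), against 23.6% of all genes. None of the 10 members was called in the interaction by limma, with 1.67% of all genes called. Group means ordered as AKP::Keap1 males (0.83 ± 0.01, SD, n = 2), AKP::Keap1 females (1.19 ± 0.08), AKP females (1.99 ± 0.05) and AKP males (2.06 ± 0.11). The AKP sexes differed by -0.07 ± 0.12 (adjusted p = 0.68) and the AKP::Keap1 sexes by 0.36 ± 0.12 (adjusted p = 0.16).

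Igf1, the growth factor that Igfals carries, is made mostly by liver under growth hormone, and its 4 probes did not tell one story. The brightest read 5.36 and 4.72 in AKP::Keap1 females, against 4.88 and 5.08 in AKP females. It read 5.01 and 5.08 in AKP::Keap1 males, against 5.82 and 5.51 in AKP males. The females overlapped and the males did not. The difference was 0.06 ± 0.23 in females (adjusted p = 0.87), -0.62 ± 0.23 in males (adjusted p = 0.09) and -0.28 ± 0.17 over both (95% interval -0.68 to 0.12, adjusted p = 0.22). The dimmest probe, by contrast, read -0.45 and -1.11 in AKP::Keap1 females, against 0.05 and 0.55 in AKP females. In males it read -0.77 and -0.75 in AKP::Keap1, against 0.09 and 0.15 in AKP.

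On that dimmest probe the Igf1 signal fell in the fit of single probes, with differences of -0.98 ± 0.18 over both sexes (adjusted p = 0.0079), -1.08 ± 0.26 in females (adjusted p = 0.028) and -0.88 ± 0.26 in males (adjusted p = 0.047). Probe A_55_P2085974 fell by 0.44 ± 0.14 over both sexes (adjusted p = 0.046), and probe A_55_P2085984 gave -0.18 ± 0.18 (adjusted p = 0.44). All 4 probes carry the same transcript accession, and which part of the transcript each one reads was not used here. Of the 4 probes 2 thus passed the threshold, both with lower signal in AKP::Keap1, and the female difference had opposite signs on the brightest and the dimmest probe. The brightest probe was itself called when arrays were scaled on their medians, a setting with an all-gene median of -0.25, with -0.52 over both sexes (adjusted p = 0.037) and -0.97 in males (adjusted p = 0.017). Without AKP::Keap1 female 1 it was called over both sexes (-0.44, adjusted p = 0.048), and without either AKP::Keap1 female it was called in males (-0.62, adjusted p = 0.042). A genotype difference in Igf1 therefore rests on the probe, the scaling and single arrays.

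**Figure D2:**
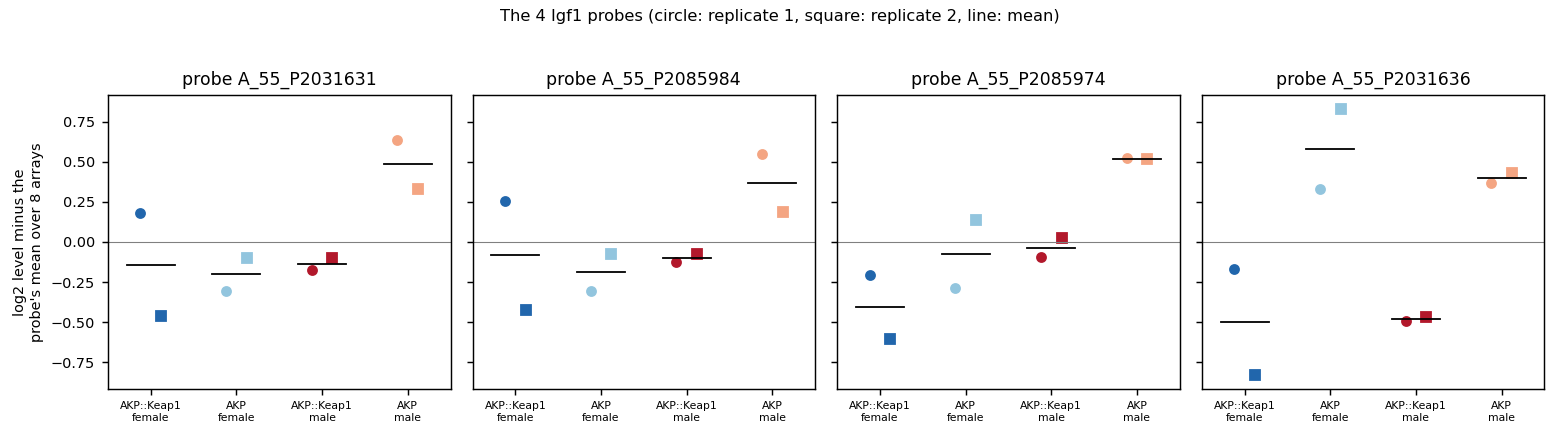
The 4 Igf1 probes, each as log2 level minus the probe's own mean over 8 arrays, in the 8 livers (points) with group means (lines), from the brightest probe on the left to the dimmest on the right. AKP males have the highest mean on the 3 brighter probes, and the dimmest probe separates AKP::Keap1 from AKP in both sexes.

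Igfbp1, which binds IGF1 and is held down by insulin, was not called. It read 7.22 and 6.32 in AKP::Keap1 females, against 6.97 and 7.52 in AKP females. It read 5.46 and 5.77 in AKP::Keap1 males, against 4.84 and 6.49 in AKP males. The genotypes overlapped in both sexes, with a difference over both of -0.26 ± 0.40 (95% interval -1.24 to 0.72, adjusted p = 0.63).

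Bcl6, the repressor that opposes STAT5 at many liver genes, read 0.92 and 1.01 in AKP::Keap1 females, against 2.57 and 0.81 in AKP females. It read 1.61 and 3.92 in AKP::Keap1 males, against 2.47 and 2.15 in AKP males. A single liver stood high in each of 2 groups, AKP female 1 and AKP::Keap1 male 2. The difference over both sexes was -0.13 ± 0.59, with a 95% interval of -1.57 to 1.30 that leaves room for a change of more than 2-fold in either direction (adjusted p = 0.87).

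**Figure D3:**
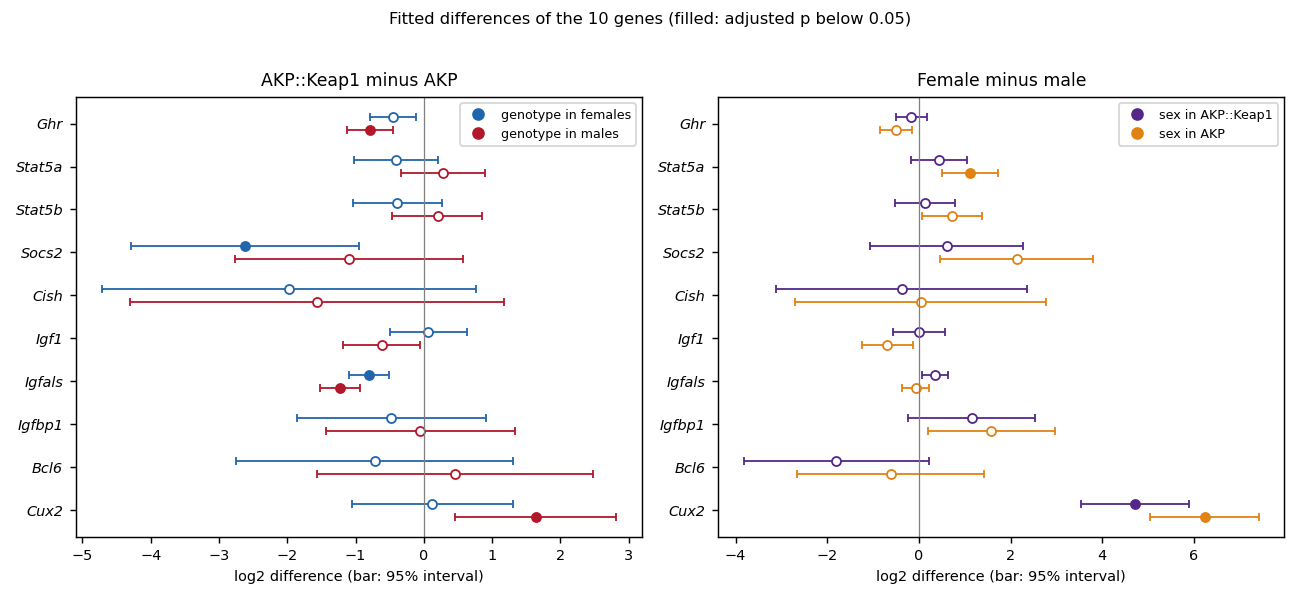
Fitted log2 differences of the 10 genes with 95% intervals, AKP::Keap1 minus AKP within each sex on the left and female minus male within each genotype on the right; filled points have adjusted p below 0.05. Igfals lies left of 0 in both sexes, and Cux2 lies far right of 0 in both genotypes, with fitted values for males that were mostly not above background.

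By sex the axis was carried by Cux2, the repressor that female-pattern growth hormone induces in mouse liver. Cux2 and Stat5a were higher in females over both genotypes and in AKP, and Cux2 alone in AKP::Keap1. These are 2 of 10 members over both genotypes, 2 of 10 in AKP and 1 of 10 in AKP::Keap1. Of all genes 21.5%, 20.0% and 3.80% were called there, and 9.92%, 8.67% and 1.12% were called higher in females. The members' median differences were 0.29, 0.38 and 0.24, against -0.03, -0.05 and 0 over all genes. Whether the genotypes differ in these sex differences is the interaction, in which no member was called.

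Cux2 read -2.09 and -2.42 in AKP::Keap1 females, against -7.79 and -6.16 in AKP::Keap1 males. In AKP it read -2.47 and -2.29 in females, against -8.59 and -8.64 in males. It was well above background in all 4 females and in 1 male, AKP::Keap1 male 2, and the 4 females lay far above the 4 males. Against the lowest signal well above background, AKP females were at least 19.2-fold higher than AKP males (adjusted p = 0.0036). In AKP::Keap1 the fitted difference was 4.72 ± 0.49 (adjusted p = 0.0063), with 1 of 2 males measured above background. With a different background correction followed by quantile normalization, the AKP::Keap1 difference was 2.06 (adjusted p = 0.00051). Its size thus depends on the processing.

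The same probe had higher values in AKP::Keap1 males than in AKP males, 1.64 ± 0.49 (adjusted p = 0.049). Neither AKP male was well above background, and the AKP::Keap1 males' mean of -6.97 lay below the -6.65 at which a signal counted as measured in AKP males, so no fold is given. The call held in 3 of 9 alternatives and 1 of 8 fits with 1 array left out, the one leaving out AKP::Keap1 male 1. When AKP::Keap1 male 2 was omitted, the difference was 0.82 (adjusted p = 0.076). In females Cux2 differed by 0.12 ± 0.49 between genotypes (adjusted p = 0.88).

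Stat5a was higher in the 4 females, at 0.00 to 0.73, than in the 4 males, at -0.87 to -0.14. The difference was 0.78 ± 0.18 over both genotypes (adjusted p = 0.031), 1.12 ± 0.25 in AKP (adjusted p = 0.031) and 0.43 ± 0.25 in AKP::Keap1 (adjusted p = 0.37). Over both genotypes the call was lost in 6 of 8 fits with 1 array left out (0.63 to 0.92 over all 8) and held without AKP male 2 or AKP female 2. It was also lost with slide as a random block (adjusted p = 0.13) and on unscaled arrays (0.61, adjusted p = 0.082). In AKP it was lost in 5 of 8 (0.83 to 1.41 over all 8) and held without AKP male 2 or either AKP::Keap1 female. The AKP call was also lost on unscaled arrays (1.16, adjusted p = 0.056), with the 4 AKP arrays alone (adjusted p = 0.071) and with the replicate block (adjusted p = 0.05). Stat5b gave 0.43 ± 0.19 over both genotypes (adjusted p = 0.15). Fitted probe by probe, its dimmer probe gave 0.57 ± 0.18 (adjusted p = 0.064).

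Markers of T and B cells were higher in females alongside Stat5a. Of 10 such genes tested, 6 rose and 0 fell in females over both genotypes (median 1.12), 5 rose in AKP (median 1.29, or 1.18 with 1 gene at its bound) and 0 were called in AKP::Keap1 (median 0.77). Their mean level ran from -1.59 to -1.20 in the 4 females, against -2.67 to -1.69 in the 4 males. Of 11 macrophage markers 2 rose over both genotypes (median 0.47), and of 12 hepatocyte markers 1 did (median -0.11). Of all genes 9.92% were called higher in females over both genotypes and 8.67% in AKP. The part of these shifts in the sex difference of Stat5a was not tested.

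On the probe standing for each gene, several members had uncalled sex differences in AKP with small unadjusted p. Socs2 differed by 2.13 ± 0.69 (adjusted p = 0.074) and Igfbp1 by 1.58 ± 0.57 (adjusted p = 0.096). Igf1 differed by -0.69 ± 0.23 (adjusted p = 0.083) and Stat5b by 0.72 ± 0.27 (adjusted p = 0.1). Fitted probe by probe, the dimmer Stat5b probe was called in AKP (0.90 ± 0.25, adjusted p = 0.048). The dimmest Igf1 probe had the opposite sign there (0.18 ± 0.26, adjusted p = 0.64). The remaining Igf1 probes gave -0.60 (adjusted p = 0.072) and -0.55 (adjusted p = 0.15). Without AKP male 1 the Socs2 difference was 3.28 (adjusted p = 0.024), without AKP male 2 that of Igfbp1 was 2.41 (adjusted p = 0.041), and without either AKP::Keap1 female Igf1 was called at -0.69 (adjusted p = 0.044). In AKP, 7 of 10 members showed no overlap between the sexes, against 66.5% of all genes, and 7 had an unadjusted p below 0.05, against 38.6%. In AKP::Keap1 the counts were 7 and 2, against 54.9% and 21.6% of all genes. The share without overlap was thus near that of all genes in AKP. Bcl6 differed by -0.62 ± 0.83 in AKP (adjusted p = 0.62) and by -1.80 ± 0.83 in AKP::Keap1 (adjusted p = 0.28). Cish had about equal means in AKP females and AKP males, 2.67 and 2.64, and the males spread widely.

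The sex-biased liver genes that this pattern is known to set were read as 2 lists. Of 22 male-biased genes tested, 17 were lower in AKP females than in AKP males (median -2.99) and 16 in AKP::Keap1 (median -2.86). Of 22 female-biased genes, 20 were higher in AKP females (median 4.46) and 14 in AKP::Keap1 (median 4.55). With genes below background set at their bound, the male-biased median in AKP was -2.75 and the other 3 medians did not move. The sulfotransferase Sult2a1 was at least 6620-fold higher in AKP females than in AKP males (adjusted p = 5.8e-06), where it was not well above background. The interaction was called for 2 of the 22 male-biased genes, Gstp1 and Susd4, and for 0 of the 22 female-biased ones. Gstp1, a glutathione transferase, differed by -0.46 ± 0.15 in AKP::Keap1 (adjusted p = 0.16) and by -2.71 ± 0.15 in AKP (adjusted p = 0.0014), with an interaction of 2.25 ± 0.21 (adjusted p = 0.019). Susd4 differed by -2.86 ± 0.14 in AKP::Keap1 (adjusted p = 0.00075) and by -4.16 ± 0.14 in AKP (adjusted p = 0.00015), with an interaction of 1.30 ± 0.20 (adjusted p = 0.046). Both interaction calls were lost in 8 of 8 fits with 1 array left out, at 2.10 to 2.40 for Gstp1 (adjusted p 0.054 to 0.091) and 1.13 to 1.47 for Susd4 (adjusted p 0.079 to 0.12). Sulfotransferase genes share sequence, so single values may hold signal of a relative.

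By genotype over both sexes, each list held genes called higher and genes called lower. In females 2 of the 22 male-biased genes rose and 5 fell, and 1 of the 22 female-biased genes rose and 2 fell. Of all genes 12.6% were called higher and 8.93% lower there. In males 0 male-biased genes rose and 3 fell, and 5 female-biased genes rose and 4 fell. Of all genes 16.5% were called higher and 12.5% lower there. Whether the lists depart from these shares was not tested. Over both sexes the male-biased Mup3 fell by 1.22 ± 0.11 (adjusted p = 0.0013) while the male-biased Gstp1 rose by 1.21 ± 0.11 (adjusted p = 0.0012). The Gstp1 average joins a rise of 2.33 ± 0.15 in females (adjusted p = 0.0015) with a difference of 0.08 ± 0.15 in males (adjusted p = 0.71). Among female-biased genes the fatty acid transporter Cd36 rose by 0.87 ± 0.10 (adjusted p = 0.0023) and the monooxygenase Fmo2 fell by 1.24 ± 0.16 (adjusted p = 0.0031).

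Array by array, the lists set AKP male 2 apart from AKP male 1, the same pair that Socs2 separated. The female-biased mean was -3.10 and -3.13 in AKP::Keap1 males, against -3.50 and -2.38 in AKP males. The male-biased mean was 3.25 and 3.23 in AKP::Keap1 males, against 3.85 and 2.96 in AKP males. In females the female-biased mean was 2.02 and 1.99 in AKP::Keap1 and 2.52 and 2.55 in AKP. AKP male 2 thus had the lowest male-biased and the highest female-biased mean of the 4 males, at a wide distance from every female. Its Cux2 was not above background. The female-biased mean takes in Sult2a1, Sult2a2, Sult3a1 and A1bg, which were not well above background in AKP males. The male-biased mean takes in Moxd1, whose sex difference in AKP had an SE of 2.69. The part of such genes in the gap between the AKP males was not tested.

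**Figure D4:**
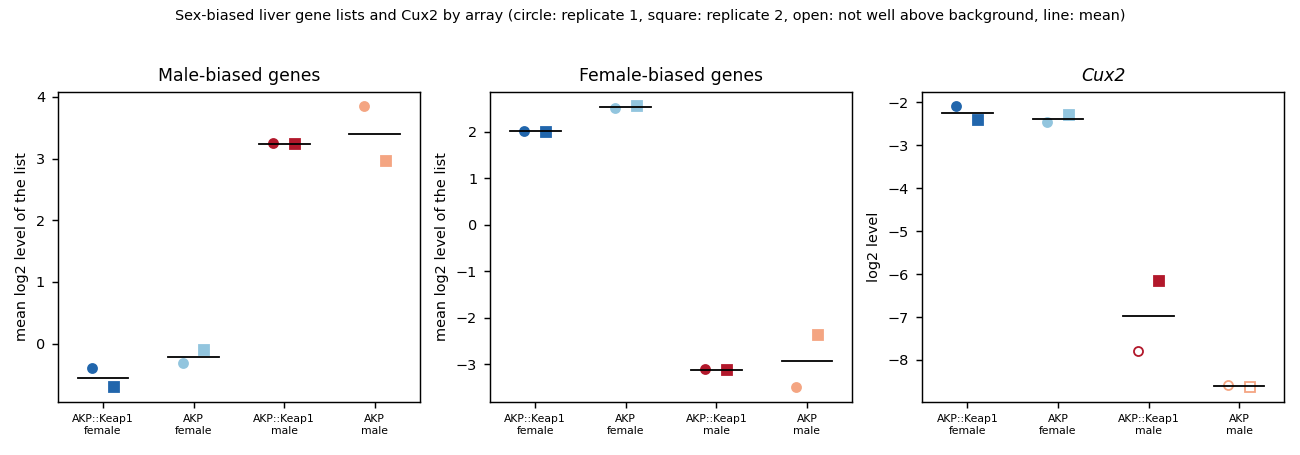
Mean log2 level of the 22 male-biased and 22 female-biased genes tested, and the level of Cux2, in each liver (points) with group means (lines); open Cux2 points are not well above background. Females and males separate in all 3 panels, and the 2 AKP males lie further apart than the 2 livers of any other group in the 2 list panels. The list means include genes that were not well above background in some groups.

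The rest of the pathway was read from 3 lists of other genes. Of 15 genes around the receptor, 0 rose and 3 fell by genotype over both sexes (median -0.22): the adaptor Irs1 (-0.78 ± 0.13, adjusted p = 0.0058), the LIF receptor Lifr (-1.15 ± 0.23, adjusted p = 0.012) and the JAK2-binding adaptor Sh2b1 (-0.34 ± 0.10, adjusted p = 0.033). Jak2 itself, named here for its role as the receptor's kinase after its values were seen, differed by 0.06 ± 0.09 (adjusted p = 0.63).

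Of 13 tested genes for IGF receptors, binding proteins and their proteases, 4 rose and 4 fell (median -0.17). The rises included Pappa, a protease that frees IGF from Igfbp4, at 2.21 ± 0.22 (adjusted p = 0.0016). Igfbp7 rose by 1.13 ± 0.14 (adjusted p = 0.0026) and the IGF1 receptor Igf1r by 0.79 ± 0.15 (adjusted p = 0.0087). The falls included Pappa's substrate Igfbp4 at -0.89 ± 0.10 (adjusted p = 0.0021), the insulin receptor Insr at -0.87 ± 0.13 (adjusted p = 0.005) and the binding protein Igfbp2 at -1.88 ± 0.44 (adjusted p = 0.018). Igf2 and Pappa2 did not pass the filter on dim probes.

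Of 12 insulin and FoxO1 genes read beside Igfbp1, 0 rose and 5 fell (median -0.60). The insulin receptor substrate Irs2 fell by 1.47 ± 0.22 (adjusted p = 0.0044), and the gluconeogenic coactivator Ppargc1a differed by -1.87 ± 0.29 (adjusted p = 0.0052). None of the interactions of the pathway genes named here was called (adjusted p 0.1 to 0.94). These 3 lists were counted against the same 39.0% of all genes called, and their levels stem from the same whole tissue in which hepatocyte markers were lower.

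**Figure D5:**
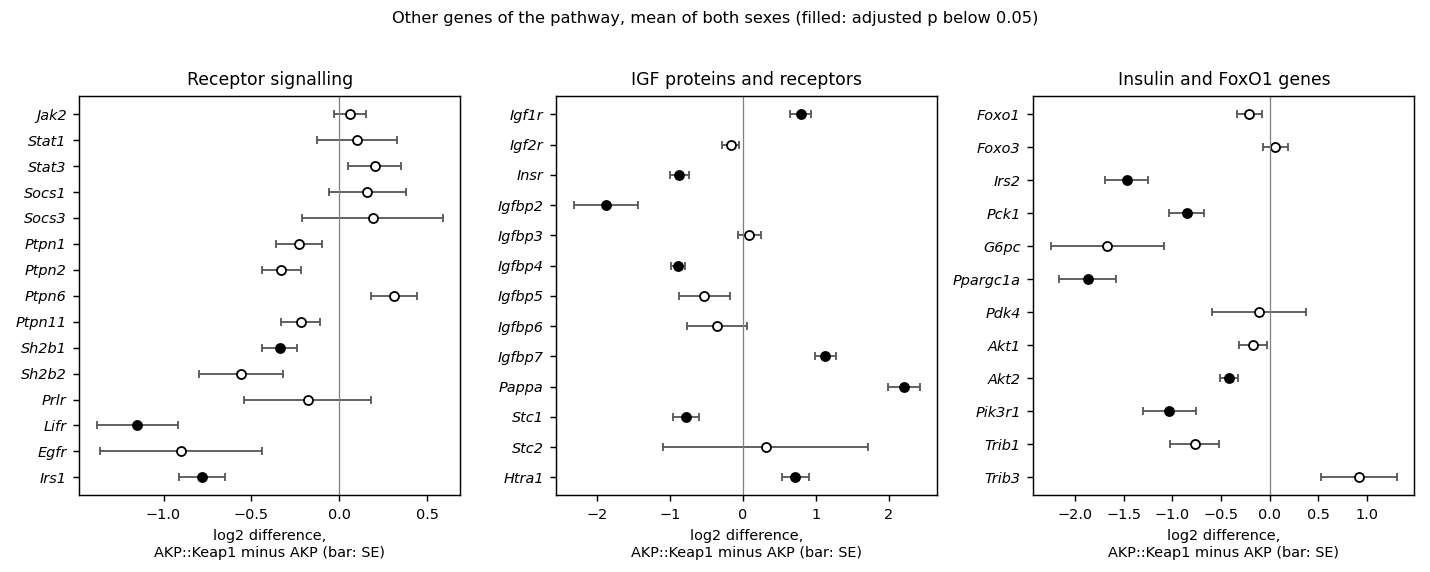
Log2 differences, AKP::Keap1 minus AKP over both sexes, of the other pathway genes in 3 lists, with standard errors; filled points have adjusted p below 0.05. All called genes of the receptor and insulin lists lie left of 0, and the IGF list splits, with Pappa furthest right and Igfbp2 furthest left.

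The genes closest to each called member were sought among 15303 named genes, by the root mean square distance between profiles over the 8 arrays, each centred on its own mean. For Ghr, whose own profile had a root mean square of 0.37, these were Dnajc22 (0.06), Rwdd1 (0.07) and the hepatocyte uptake carrier Slco1b2 (0.08). For Igfals, at 0.53, they were Slc43a3 (0.12), Atp9b (0.14) and Hgfac, a protease made by liver (0.14). For Socs2, at 1.36, the closest were Ankrd37 (0.62), Hykk (0.63) and Brd1 (0.64), so that no gene followed its profile as closely as those of Ghr and Igfals were followed. These distances describe 8 arrays, which also share slides and scan days.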

How the data were processed

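Whole liver RNA of 8 mice was measured on 1-colour Agilent arrays (design 026655, mm9 annotation per the file headers), with 500 ng of RNA labelled with Cy3 per the labels' protocols. The deposited values are linear intensities, the processed signals of Feature Extraction 10.7.3.1 per the file headers (10.1 per the submitters' processing notes). The deposited series matrix holds the same intensities, equal in 355176 of 355176 values, without scaling between arrays. Here the 1377 control spots of 44397 and spots marked as outliers were left out, and log2 signals were shifted by each array's 75th percentile. Spots of a probe were averaged, and a probe was kept when at least 2 of the 8 arrays showed it well above background. Probes were named through RefSeq accessions (26055 probes, 19751 symbols, 13374 probes unnamed), and the brightest probe represented each gene. As the naming table is of another assembly, no array coordinates are given.

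limma 3.58.1 in R 4.3.3 fitted 1 mean per group over all 8 arrays, and p-values are two-sided and Benjamini-Hochberg adjusted over 15834 genes. Errors are SE of the fit or SD of n = 2. The script was tested on simulated data. A gene not above background on any array of a group is given as "at least N-fold" against the lowest signal well above background. The number of arrays limits the precision. The members and lists were chosen with earlier results of these data known. All members are named. Of each other list, no more than 3 rising and 3 falling genes could be named, by smallest adjusted p, and for each member called by genotype the 3 genes of nearest profile. The alternatives were other scalings, background correction, filters, probe choice, variance model, arrays in the fit, slide and replicate blocks, each array left out, and, added after seeing the data, each probe on its own. The background correction was to use the mean spot signal, a column the files do not hold, and used the median spot signal with an offset of 50. Quantile normalization followed it, so this alternative changed the signal, the background and the scaling together. The fit with slide as a random block was additive in genotype and sex. As each slide held 1 group, that fit cannot tell slide from the genotype by sex interaction. Replicate numbers did not pair the livers, as the deviations of like-numbered arrays correlated at -0.1563 to 0.1234 between groups.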

Additional observations from a re-analysis of the deposited data

Results flagged for a closer look

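Of the sex-biased liver genes read beside the axis, 2 had a genotype difference that differed between the sexes by the interaction term. Gstp1 read 6.71 and 6.51 in AKP::Keap1 females, against 4.34 and 4.22 in AKP females, and 7.05 and 7.08 in AKP::Keap1 males, against 7.14 and 6.84 in AKP males. Its female difference exceeded its male difference by 2.25 (limma, adjusted p = 0.019), and the call held in 9 of 9 alternatives (1.78 to 2.47) and in 0 of 8 fits with 1 array left out. Susd4 read -2.19 and -2.13 in AKP::Keap1 females, against -2.15 and -2.20 in AKP females, and 0.86 and 0.52 in AKP::Keap1 males, against 1.99 and 1.98 in AKP males. Its interaction was 1.30 (adjusted p = 0.046), and the call held in 5 of 9 alternatives (0.89 to 1.52) and in 0 of 8 fits with 1 array left out.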

How the results depend on the processing

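Of 1292 differences of members under alternatives, 1198 kept their side of the threshold, and 67 of these changed sign with neither value called. A call was lost in 51 and gained with the same sign in 42, and in 1 an uncalled value became a called one of opposite sign. That one was Igf1 by genotype in females, with 0.06 on the brightest probe (not called) and -1.08 on the dimmest (adjusted p = 0.028), as given in the report. The number of members called by genotype over both sexes was 2 to 4 under every alternative, against 3. In males it was 3, counting Cux2, falling to 1 with normexp background correction, and 1 to 3 with single arrays left out. In females it was 2, falling to 1 without a filter on dim probes and to 1 with the replicate block, and 0 to 2 with single arrays left out. By sex over both genotypes it was 2, with 4 under a trended robust variance, 1 with slide as a random block (estimated correlation 0.23) and 1 to 3 with single arrays left out. In AKP it was 2, with 4 after a shift to the array median, 4 under the trended robust variance, 1 without scaling, 1 with the 4 AKP arrays alone, and 1 to 3 with single arrays left out. In AKP::Keap1 it was 1, and 0 where probes had to be above background on all 8 arrays, since Cux2 was not tested there. In the interaction it stayed 0.

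Over all genes, the genotype count of 6181 was 3277 with slide as a random block and 8718 after the median shift. The sex count of 3402 was 305 with that block. The block was fitted without an interaction and each slide is a group, so it did not separate slide from group. Other ranges over the alternatives were 3282 to 8188 in males, 1239 to 3800 in females, 56 to 1048 for the interaction, 1210 to 4868 for sex in AKP and 364 to 1689 in AKP::Keap1. With single arrays left out they were 4131 to 5483 by genotype, 1027 to 4382 in males, 723 to 2826 in females, 0 to 29 for the interaction, 1096 to 2224 by sex, 348 to 2868 in AKP and 186 to 525 in AKP::Keap1. Scaling moved the median of all genes by genotype from 0 to -0.25 (array median) or 0.31 (unscaled), and calls from 3431 higher and 2750 lower to 2381 higher and 6337 lower or 5703 higher and 646 lower. Ghr, at -0.31 on unscaled arrays (adjusted p = 0.055), lay as far below that median as in the main setting. The replicate block used numbers that do not pair the livers. It also ended the calls of Socs2 in females (adjusted p = 0.051), Cux2 by genotype in males (0.062) and Stat5a by sex in AKP (0.05), and called Stat5b by sex over both genotypes (0.039) and in AKP (0.031). Apart from the effect of fewer arrays or probes in a fit, the cause of these changes was not tested.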
